A study of Mus musculus with 72 samples.

Results

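The integrated stress response gene set described here consists of 10 genes that surround the transcription factor ATF4, namely Atf4, Atf5, Ddit3, Trib3, Ppp1r15a, Chac1, Asns, Psat1, Phgdh and Slc7a11. They were taken as a list of names by a rule that uses no measured value, although earlier results of these data were known when the list was drawn up. All 10 were present among the 19938 genes to which a probe set with a single gene symbol could be assigned. Each of the 10 had 1 such probe set, so no choice between probe sets entered their values. The values are on the log2 scale, on which a difference of 1 is a doubling, and they allow a gene to be compared between arrays but not a gene with another gene.

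The arrays read the marrow RNA of mouse models of acute promyelocytic leukaemia (APL), a leukaemia of granulocyte precursors, and all 16 groups carried a fusion of the retinoic acid receptor alpha (RARA), so that no healthy marrow served as a reference. Transgenic mice carried either PML/RARA or PLZF/RARA, both on a wild type background. In the model made by viral transduction the fusion was PML/RARA and the background was Pml wild type or Pml null. Mice were untreated or received retinoic acid (RA), with time labels of 6 h and 12 h for both. For transgenic PML/RARA there were 4 arrays without RA and 8 with RA per time, and for transgenic PLZF/RARA 2 and 4. For viral Pml wild type and for viral Pml null there were 4 arrays without RA and 8 with it at 6 h, and 2 and 4 at 12 h. The labels name 4 batches. Batches 1 and 2 held transgenic arrays only and batches 3 and 4 viral arrays only, so levels were compared only within a model. The promoter of the transgene, the viral vector, the dose of RA and the number of mice or leukaemias behind a group are not given here by the labels, and p-values therefore measure the spread between these arrays, which may be technical. The promyelocyte genes Mpo, Ctsg and Elane had mean log2 values of 13.21, 13.09 and 13.00 over the 72 arrays, above those of at least 99.8% of all genes. In bulk marrow, fewer cells of a type and less RNA per cell cannot be told apart.

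Several stresses, among them misfolded protein in the endoplasmic reticulum, lack of amino acids, lack of haem and viral double-stranded RNA, lead to phosphorylation of the translation factor eIF2 on its alpha subunit by separate kinases. General translation then slows while Atf4 mRNA is translated more, so a rise of ATF4 activity need not show in Atf4 mRNA. ATF4 is known to activate genes of amino acid synthesis and uptake, other transcription factors such as Ddit3, which encodes CHOP, and genes that end the response, such as Ppp1r15a, which encodes the GADD34 subunit of the phosphatase of eIF2. In APL, RA drives the differentiation of promyelocytes towards granulocytes, and PLZF/RARA disease is known for its poor response to RA.

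ATF4 binds with partners of the C/EBP family at a composite element, and 4 of the 10 genes held the letters TGATGNAA on either strand between 250 bases before and 50 bases after a transcription start site of the RefSeq promoter set (GRCm38.p6). The set had 12 windows for the 10 genes, since Atf5 and Psat1 had 2 each. The element occurred in 4 of these 12 windows and in 1304 of all 32851 windows, or 3.97%. The stretches that hold it are shown because all 4 genes differed between the untreated viral leukaemias described below. There 20.8% of all genes were called. With RA only Chac1 of the 4 was called. Capitals mark the element.
Chac1, chr2:119350992-119351241, plus strand, bases -250 to -1: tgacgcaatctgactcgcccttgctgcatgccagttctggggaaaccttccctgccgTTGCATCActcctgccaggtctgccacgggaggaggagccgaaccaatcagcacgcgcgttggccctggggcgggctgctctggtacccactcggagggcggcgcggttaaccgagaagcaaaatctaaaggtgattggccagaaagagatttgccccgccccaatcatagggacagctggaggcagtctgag
Asns, chr6:7693210-7693459, minus strand, bases -250 to -1: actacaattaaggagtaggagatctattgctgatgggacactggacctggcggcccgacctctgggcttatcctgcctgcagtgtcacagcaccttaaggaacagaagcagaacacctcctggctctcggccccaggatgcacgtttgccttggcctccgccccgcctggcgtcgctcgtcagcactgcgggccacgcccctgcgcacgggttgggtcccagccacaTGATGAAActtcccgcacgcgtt
Slc7a11, chr3:50443614-50443863, minus strand, bases -250 to -1: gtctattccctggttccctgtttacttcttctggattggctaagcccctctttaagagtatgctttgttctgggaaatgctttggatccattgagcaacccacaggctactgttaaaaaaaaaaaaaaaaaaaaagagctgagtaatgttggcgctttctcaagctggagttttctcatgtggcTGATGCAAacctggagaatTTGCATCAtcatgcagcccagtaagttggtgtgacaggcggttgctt
Trib3, chr2:152344028-152344057, minus strand, bases 4 to 33 after the start: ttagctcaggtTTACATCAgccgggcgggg
Slc7a11 held the element at 2 places, from -66 to -59 on the strand of the gene and from -47 to -40 on the opposite strand. The element of Asns lay at -23 to -16, that of Chac1 at -193 to -186 and that of Trib3 at 15 to 22 after the start. A second motif, the antioxidant element TGACNNNGC bound by NRF2, was found in a window of Asns, Phgdh and Ppp1r15a and in 12.4% of all windows. No match says only that these letters are not in the window.

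RA was followed by higher Ddit3 in every leukaemia with PML/RARA and by lower Phgdh in 3 of the 4 leukaemia types, while most of the other genes passed the test rarely or not at all. Of the 80 combinations of a gene with 1 of the 8 RA effects, 9 were called higher and 4 lower at an adjusted p below 0.05 over all genes (limma, two-sided). Ddit3 accounted for 5 of the 9 rises and Phgdh for 3 of the 4 falls. The other rises were those of Atf4 in 2 comparisons and of Chac1 and Ppp1r15a in 1 each, and the other fall was that of Psat1. Atf5, Trib3, Asns and Slc7a11 were called in none of the 8.

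Of the 10 genes, 1 was called in transgenic PML/RARA leukaemia at 6 h, where 14.3% of all genes were called, and 5 at 12 h, where 21.6% were. In transgenic PLZF/RARA leukaemia the count was 0 at 6 h, against 2.20% of all genes and with 1 gene of the 10 at an unadjusted p below 0.05. It was 1 at 12 h, against 4.03%. In viral Pml wild type leukaemia it was 1 at 6 h and 1 at 12 h, against 9.88% and 6.10%. In viral Pml null leukaemia it was 3 at 6 h and 1 at 12 h, against 11.4% and 6.05%. The median change of the 10 genes lay between -0.17 and 0.24 in the 8 comparisons, and that of all genes between -0.05 and 0.06. The 3 genes called at 6 h in viral Pml null leukaemia (Atf4, Ddit3 and Chac1) were called only with both batches together. Within batch 3 alone the count was 0, and within batch 4 alone it was 1, which was Trib3 and none of the 3.

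**Figure D1:**
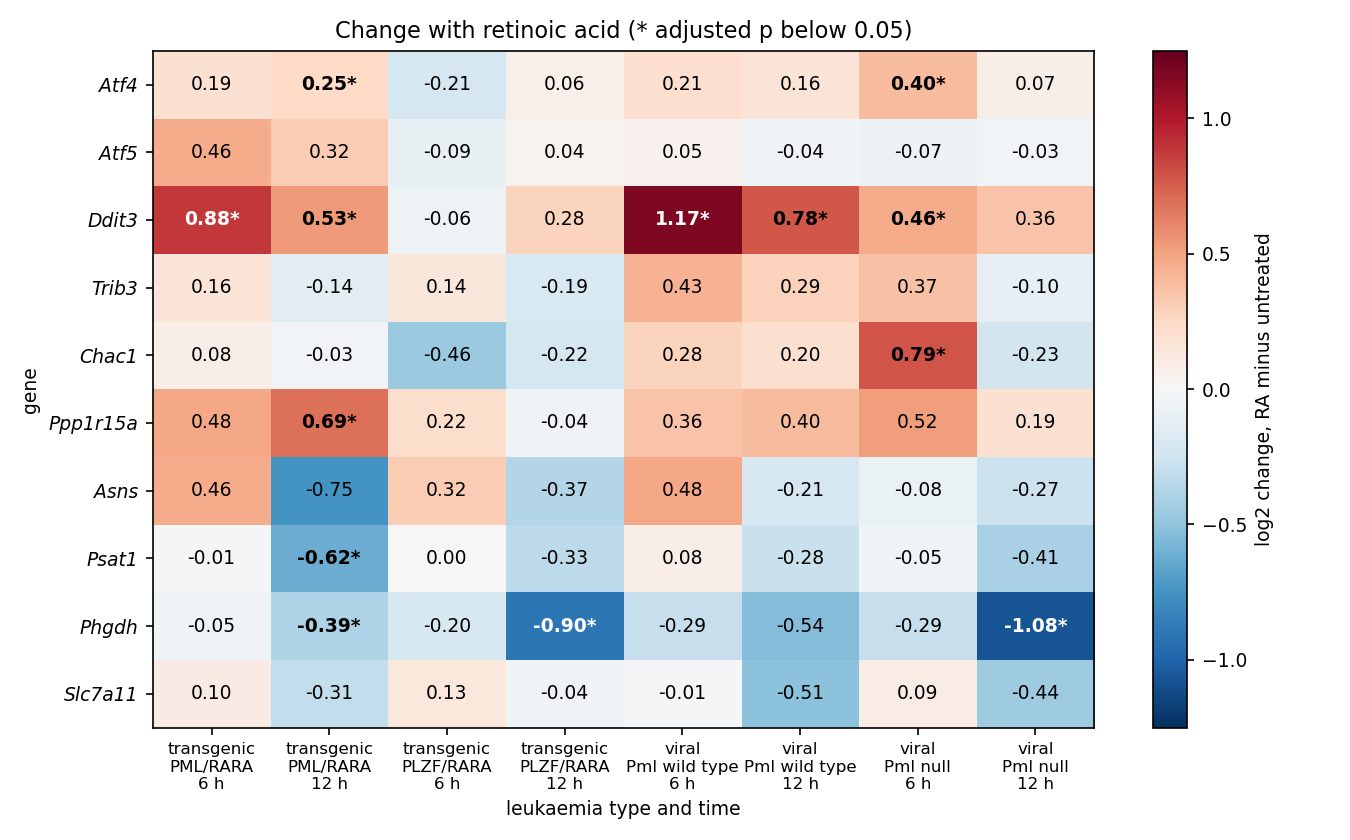
Log2 change with RA (RA minus untreated at the same time, adjusted for batch) of the 10 genes in rows, for 4 leukaemia types at 6 h and 12 h in columns. Stars mark an adjusted p below 0.05; the row of Ddit3 holds 5 of the 9 rises, and the row of Phgdh is below 0 throughout and holds 3 of the 4 falls.

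Ddit3, the gene of the transcription factor CHOP that acts downstream of ATF4, had the largest of the 80 changes and 5 of the 9 rises, and was above its untreated level in 7 of the 8 RA effects. In transgenic PML/RARA marrow at 6 h the untreated arrays read 7.32, 7.33, 7.34 and 7.40, and the 8 RA arrays ran from 7.95 through a median of 8.18 to 8.48. All 8 RA arrays lay above all 4 untreated arrays, and the change was 0.88 ± 0.10 (SE), a 1.84-fold rise (adjusted p = 3.67e-08). At 12 h the untreated arrays read 7.32, 7.33, 7.42 and 7.70 and the RA arrays 7.76 to 8.26 with a median of 7.97. The groups again did not overlap, with a change of 0.53 ± 0.10 (adjusted p = 7.10e-05).

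In viral Pml wild type marrow at 6 h the untreated arrays of Ddit3 read 7.20, 7.43, 7.51 and 7.61, and the RA arrays 8.44 to 8.82 with a median of 8.56. The change was 1.17 ± 0.14 or 2.24-fold (adjusted p = 2.05e-07), and it was 1.11 within batch 3 and 1.22 within batch 4. At 12 h the untreated arrays read 7.53 and 7.64 and the RA arrays 7.83, 8.08, 8.76 and 8.78. The 4 RA arrays were above both untreated arrays but fell into a lower and a higher pair, and the change was 0.78 ± 0.19 (adjusted p = 0.0101). Without the first or without the other untreated array, the adjusted p was 0.0891 and 0.173.

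In viral Pml null marrow at 6 h the untreated values of Ddit3 were 7.30, 7.50, 7.53 and 7.68 and the RA values 7.68 to 8.48 with a median of 7.97. Here 7 of 8 RA arrays were above all untreated arrays, and the rise was 0.46 ± 0.14 (adjusted p = 0.0223). It was of like size in batch 3 (0.45) and batch 4 (0.47) but passed the test in neither batch alone, nor without untreated replicate 1 (adjusted p = 0.0821) or replicate 4 (adjusted p = 0.0849). At 12 h the untreated values were 7.11 and 7.31 and the RA values 7.40, 7.40, 7.73 and 7.74. All 4 RA arrays were above both untreated arrays, but the change of 0.36 ± 0.19 did not pass (adjusted p = 0.374).

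PLZF/RARA leukaemia was the type in which Ddit3 did not pass the test at either time. At 6 h its untreated arrays read 7.42 and 7.64 and its RA arrays 7.32, 7.44, 7.46 and 7.66, which overlap, with a change of -0.06 ± 0.14 (adjusted p = 0.887). At 12 h the untreated arrays read 7.02 and 7.47 and the RA arrays 7.38, 7.53, 7.56 and 7.63, with a change of 0.28 ± 0.14 (adjusted p = 0.321). The untreated level of Ddit3 in PLZF/RARA marrow overlapped that in PML/RARA marrow, with a difference of -0.01 ± 0.10. In the order of its transgenic group means, the RA groups of PML/RARA at 6 h (8.20 ± 0.18 SD, n = 8) and at 12 h (7.97 ± 0.15 SD, n = 8) stood first. The other 6 groups lay between 7.25 and 7.53 and did not differ from their neighbours beyond their spread.

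**Figure D2:**
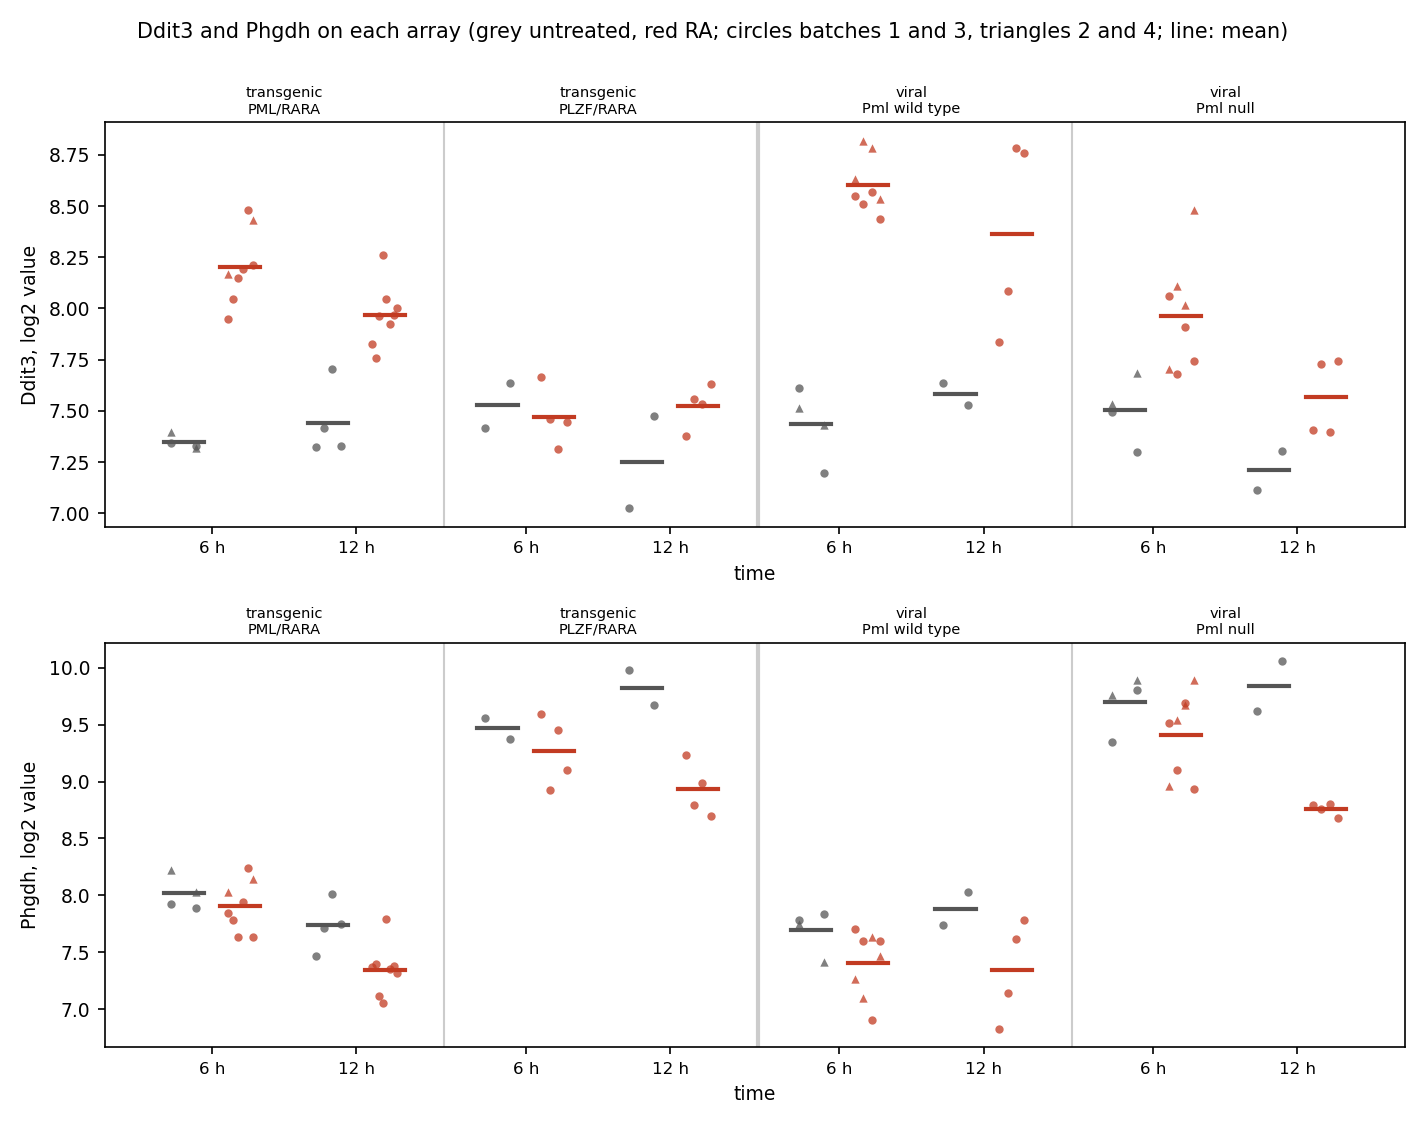
Log2 value of Ddit3 (top) and Phgdh (bottom) on each of the 72 arrays, by leukaemia type and time, with untreated arrays in grey and RA arrays in red; triangles are arrays of batches 2 and 4, and lines are group means. For Ddit3 the RA arrays stand clear of the untreated ones at both times in both PML/RARA types with wild type Pml. In Pml null they do so at 12 h, and 7 of 8 do at 6 h, while in PLZF/RARA the groups overlap. For Phgdh the untreated PLZF/RARA and Pml null arrays stand at 9.35 or higher.

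Atf4 itself, the central factor, moved little at the level of its mRNA. In transgenic PML/RARA marrow at 12 h its untreated arrays read 7.90, 8.09, 8.15 and 8.16 and its RA arrays 8.13 to 8.53 with a median of 8.33, and 7 of the 8 were above all untreated arrays. The rise of 0.25 ± 0.09 (adjusted p = 0.0400) was close to the threshold: 6 of the 12 fits that left out 1 array lost it, with adjusted p up to 0.195. At 6 h the change was 0.19 ± 0.09 (adjusted p = 0.173), with untreated arrays at 8.27, 8.28, 8.39 and 8.46 and RA arrays from 8.36 to 8.79. With the untreated arrays of both times as controls, the 6 h change was called (0.36, adjusted p = 7.05e-04) and the 12 h change was not (0.11, adjusted p = 0.396).

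In viral Pml null marrow at 6 h the untreated arrays of Atf4 read 8.32, 8.39, 8.45 and 8.68, and its RA arrays ran from 8.38 through 8.95 to 9.24. The rise was 0.40 ± 0.12 (adjusted p = 0.0309), with 6 of 8 RA arrays above all untreated ones; it was lost in 7 of the 12 fits that left out 1 array. In the other types the changes of Atf4 were 0.21 ± 0.12 (viral Pml wild type, 6 h), 0.16 ± 0.18 (the same at 12 h), 0.07 ± 0.18 (viral Pml null, 12 h), -0.21 ± 0.12 (PLZF/RARA, 6 h) and 0.06 ± 0.12 (PLZF/RARA, 12 h). None of these passed the test.

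Atf5, a related factor whose mRNA is also under translational control, was called in none of the RA effects. Its widest spread was in the transgenic PML/RARA RA group at 6 h, where arrays ran from 7.63 through 8.25 to 9.24 against untreated values of 7.54, 7.72, 7.79 and 7.86. The change of 0.46 ± 0.21 had an adjusted p of 0.165, but was called with the untreated arrays of both times as controls (0.59, adjusted p = 0.00764). At 12 h it was 0.32 ± 0.20, and in the other 6 comparisons it lay between -0.09 and 0.05.

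Among the genes that restrain the response, Ppp1r15a was called in 1 RA effect and Trib3, a pseudokinase that inhibits ATF4 and CHOP, in none. Ppp1r15a in transgenic PML/RARA marrow at 12 h read 7.11, 7.12, 7.16 and 7.44 without RA, and 7.26 to 8.54 with a median of 7.93 with RA. Of the 8 RA arrays 7 were above all untreated arrays, and the rise was 0.69 ± 0.21 or 1.61-fold (adjusted p = 0.0131). Its changes elsewhere were 0.48 ± 0.21 in the same type at 6 h, 0.36 ± 0.19 and 0.40 ± 0.27 in viral Pml wild type, 0.52 ± 0.19 and 0.19 ± 0.27 in viral Pml null, and 0.22 ± 0.29 and -0.04 ± 0.29 in PLZF/RARA at 6 h and 12 h, none of them called. With the untreated arrays of both times as controls, the 6 h changes in transgenic PML/RARA (0.70, adjusted p = 0.00207) and in viral Pml null (0.49, adjusted p = 0.0358) were called.

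Erythroid markers, and those of several other cells, moved with Ppp1r15a in the transgenic model. Among the 7 measured of 12 listed erythroid markers, 5 rose with RA in transgenic PML/RARA marrow at 12 h (median change 0.92). The mean log2 value of the 7 markers ran from 8.15 to 9.16 in the untreated and from 8.41 to 10.29 in the RA arrays of that group, against 6.43 to 7.23 in all PLZF/RARA arrays. Over the 36 transgenic arrays this mean and Ppp1r15a had a Pearson r of 0.86, and over the 36 viral arrays 0.30. The transgenic r was 0.80 for B cell, 0.62 for megakaryocyte and platelet, 0.60 for T and NK cell and 0.57 for plasma cell markers. It was 0.37, 0.26 and 0.26 for promyelocyte, monocyte and stroma markers. Over the viral arrays the B cell, megakaryocyte, T and NK and plasma cell values ran from -0.61 to 0.06. The part of these cells in the Ppp1r15a result was not tested.

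Trib3 in viral Pml wild type marrow at 6 h ran from 6.92 through 7.66 to 8.09 with RA, against a median of 7.12 and a highest value of 7.39 in the 4 untreated arrays. The change of 0.43 ± 0.17 (adjusted p = 0.112) was made of unequal parts: -0.01 in batch 3 and 0.86 in batch 4, where it was called on its own (adjusted p = 0.00168). Without RA replicate 5 it was called as well (0.50, adjusted p = 0.0395). In viral Pml null marrow at 6 h the change was 0.37 ± 0.17 (adjusted p = 0.175), with 0.13 in batch 3 and 0.61 in batch 4, where it was called on its own (adjusted p = 0.0187). In the transgenic types and at 12 h it lay between -0.19 and 0.29.

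Chac1, an enzyme that breaks down glutathione and a known target of ATF4, rose in viral Pml null marrow at 6 h. Its untreated arrays read 7.07, 7.11, 7.24 and 7.35 and its RA arrays 7.09 to 8.60 with a median of 8.10. The rise was 0.79 ± 0.21 or 1.73-fold (adjusted p = 0.0106), and 6 of the 8 RA arrays were above all untreated ones. At 12 h the same type read 7.38 and 7.38 without RA and 7.03, 7.14, 7.20 and 7.24 with it, a change of -0.23 ± 0.29 that did not pass. In viral Pml wild type marrow, where untreated Chac1 was already 8.31, 8.55, 8.58 and 8.60 at 6 h, the change was 0.28 ± 0.21, with -0.18 in batch 3 and 0.75 in batch 4. The rise in Pml null marrow was not called without 1 of the untreated arrays (0.73, adjusted p = 0.0530). It was also not called within batch 3 (0.67, adjusted p = 0.308) or batch 4 (0.91, adjusted p = 0.0567), where its size stayed about the same. At 12 h in viral Pml wild type the change was 0.20 ± 0.29. At 6 h and 12 h the changes were 0.08 ± 0.16 and -0.03 ± 0.16 in transgenic PML/RARA and -0.46 ± 0.22 and -0.22 ± 0.22 in PLZF/RARA. None of these was called, but in PLZF/RARA at 6 h all 4 RA arrays were below both untreated arrays.

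Asns, which makes asparagine, spread widely between arrays of a group, with a residual SD of 0.47 that exceeded that of 99.2% of all genes. In transgenic PML/RARA marrow at 12 h its untreated arrays were tight at 10.53, 10.66, 10.73 and 10.78, while the RA arrays ran from 9.04 through 9.75 to 11.41. In that group 7 of the 8 RA arrays were below all untreated arrays and 1 was above them. The change of -0.75 ± 0.33 was not called (adjusted p = 0.114), but was called without that highest array (-0.97, adjusted p = 0.0173) and with the untreated arrays of both times as controls (-0.76, adjusted p = 0.0346). At 6 h the change was 0.46 ± 0.34, and the difference between both times was -1.21 ± 0.48 and not called. In viral Pml wild type marrow at 6 h the change was 0.48 ± 0.19 (adjusted p = 0.109), again with unequal batches, 0.05 in batch 3 and 0.91 in batch 4 (adjusted p = 0.00116 within batch 4). It was also called without 1 untreated array, replicate 4 (0.65, adjusted p = 0.0420).

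Psat1 and Phgdh encode enzymes of serine synthesis from glycolysis, Phgdh the first step and Psat1 the next. Psat1 fell in transgenic PML/RARA marrow at 12 h, with untreated arrays at 10.50, 10.50, 10.59 and 10.74 and RA arrays from 9.52 through 9.84 to 10.71. Of the 8 RA arrays 7 were below all untreated ones, and the fall was -0.62 ± 0.17 (adjusted p = 0.00572). In the other types at 12 h the values were -0.33 ± 0.24 (PLZF/RARA), -0.28 ± 0.18 (viral Pml wild type) and -0.41 ± 0.18 (viral Pml null), none called. At 6 h all 4 changes lay between -0.05 and 0.08. In the transgenic PML/RARA group at 12 h, where Psat1 fell, the mean log2 value of 10 monocyte and macrophage markers ran from 8.68 through 8.80 to 8.92 in the untreated arrays and had a median of 9.05 and a highest value of 9.27 in the RA arrays, without overlap, and 2 of the 10 rose. Over the 36 transgenic arrays this mean had a Pearson r of -0.69 with Psat1 and -0.52 with Asns, and its part in their values was not tested.

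Phgdh was below its untreated level in all 8 RA effects and was called lower in 3, all at 12 h. In PLZF/RARA marrow at 12 h the untreated arrays read 9.67 and 9.98 and the RA arrays 8.70, 8.80, 8.99 and 9.24. The groups did not overlap, and the fall was -0.90 ± 0.18, or 1.86-fold (adjusted p = 0.00161). In viral Pml null marrow at 12 h the untreated arrays read 9.62 and 10.06 and the RA arrays 8.68, 8.76, 8.79 and 8.80, a fall of -1.08 ± 0.25 or 2.11-fold (adjusted p = 0.00577). The 12 h arrays of transgenic PML/RARA marrow read 7.47, 7.72, 7.75 and 8.02 without RA and 7.05 to 7.80 with a median of 7.36 with RA, a fall of -0.39 ± 0.13 (adjusted p = 0.0224).

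In viral Pml wild type marrow the Phgdh changes were -0.29 ± 0.18 at 6 h and -0.54 ± 0.25 at 12 h, neither called. The change at 6 h in the other types was -0.05 ± 0.13, -0.20 ± 0.18 and -0.29 ± 0.18. With groups of 2 untreated arrays, single arrays mattered: without the first untreated PLZF/RARA array at 12 h the adjusted p was 0.0904, and without the other untreated Pml null array at 12 h it was 0.245. In transgenic PML/RARA marrow the call was lost without untreated replicate 3 (adjusted p = 0.148) or replicate 4 (adjusted p = 0.0567).

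Slc7a11, the cystine importer that supplies glutathione synthesis, was called in no RA effect, with changes between -0.51 and 0.13. Its group means were 5.30 to 5.74 in viral Pml null and 5.56 to 6.02 in transgenic PML/RARA marrow. These lay below the array medians of 6.56 to 6.81, and whether the gene was detected there was not tested. The arrays of Slc7a11 varied as much as those of Asns, with a residual SD of 0.44. In PLZF/RARA marrow, for example, the RA arrays read 5.91, 6.27, 7.10 and 7.72 at 6 h around untreated values of 6.60 and 6.63.

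**Figure D3:**
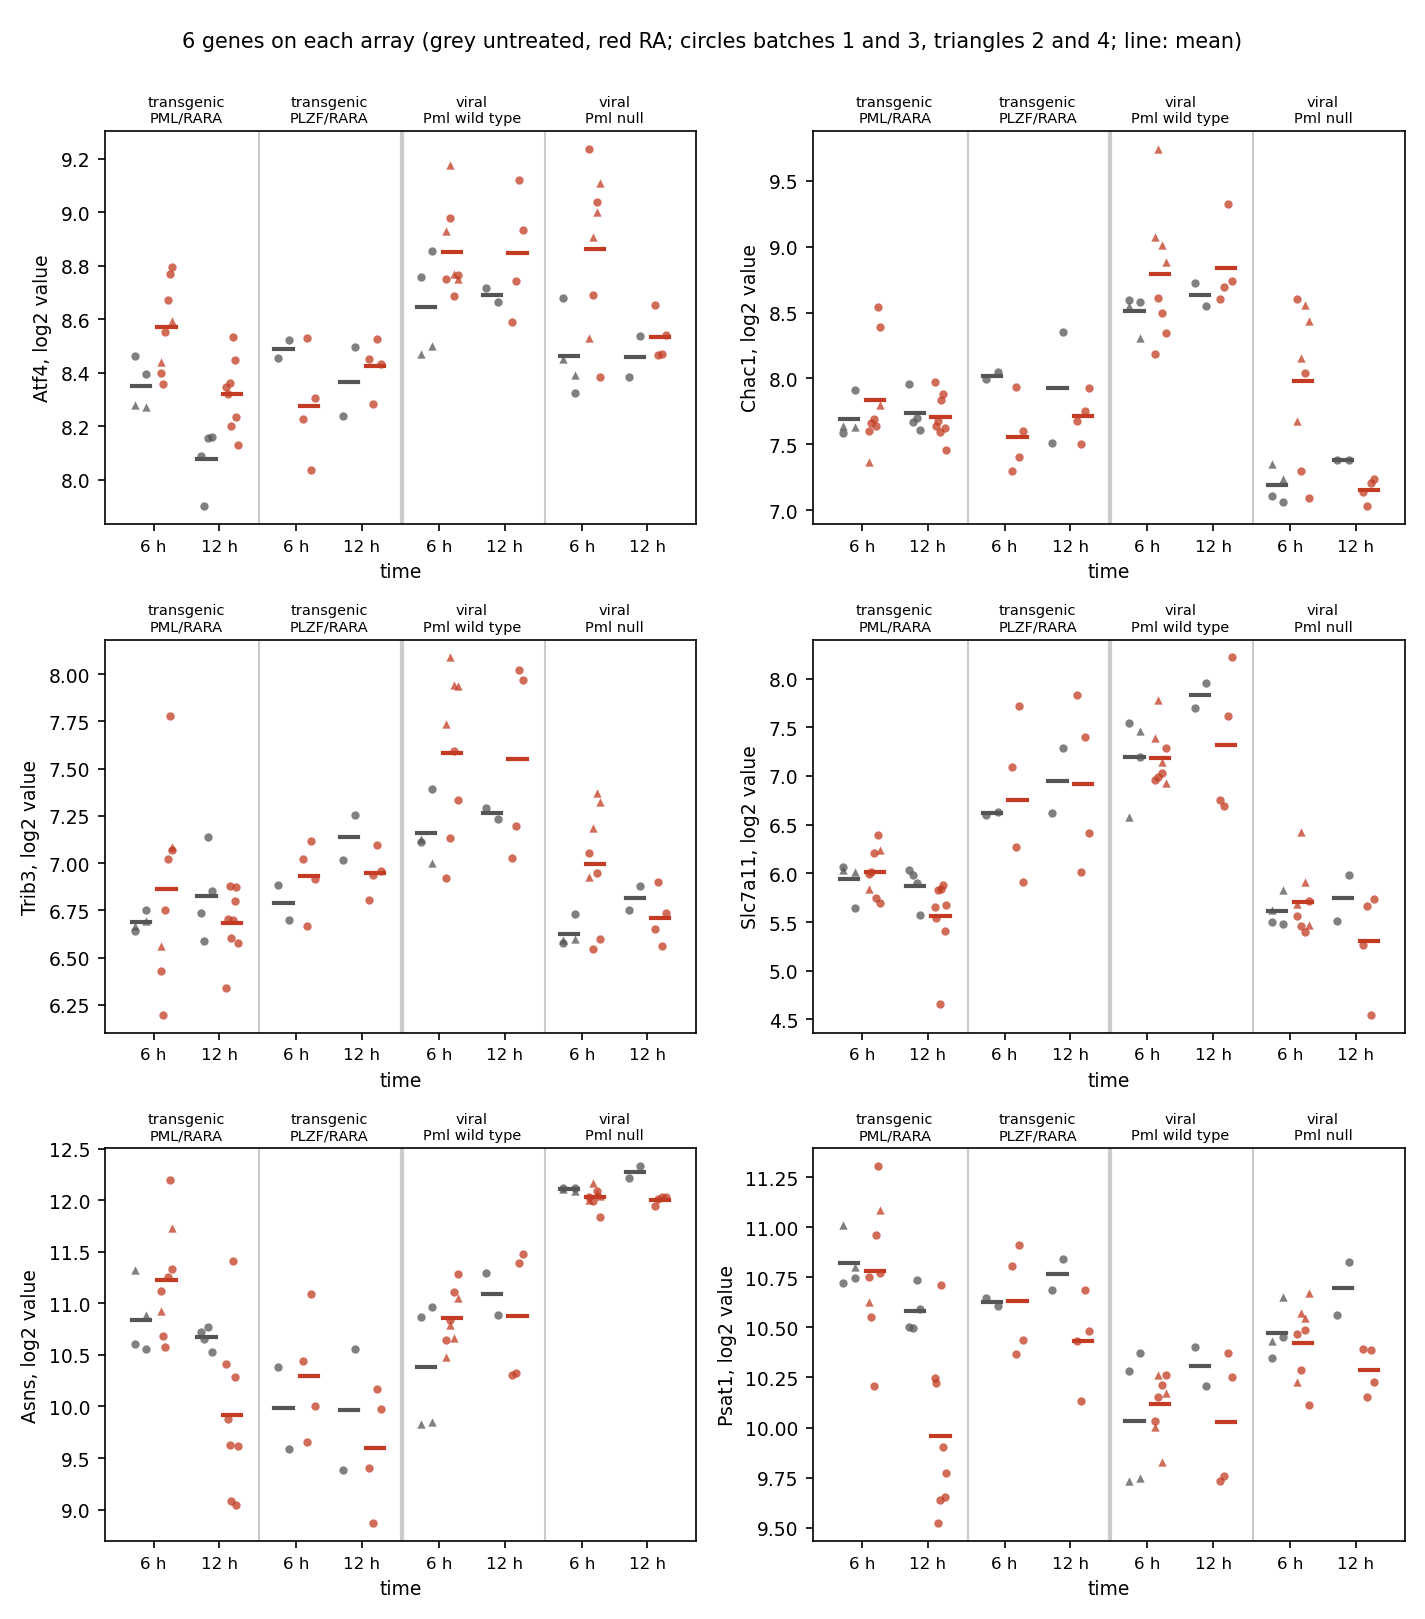
Log2 value of Atf4, Chac1, Trib3, Slc7a11, Asns and Psat1 on each array, by leukaemia type and time, with untreated arrays in grey and RA arrays in red; triangles are arrays of batches 2 and 4, and lines are group means. At 6 h in viral Pml wild type marrow the untreated Asns and Psat1 arrays form a lower pair in batch 4 and a higher pair in batch 3.

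The RA effect itself was compared between types within each model, averaged over both times. Between transgenic PML/RARA and PLZF/RARA leukaemia it differed for Ddit3 alone among the 10 genes, by 0.59 ± 0.12 (adjusted p = 0.00125), where 7.42% of all genes differed. This difference stayed called in all 36 fits that left out 1 array, with values from 0.48 to 0.70. The change of Ddit3 was 0.88 in PML/RARA and -0.06 in PLZF/RARA at 6 h, and 0.53 and 0.28 at 12 h. Over the transgenic arrays Ddit3 had a Pearson r of 0.63 with erythroid, 0.62 with megakaryocyte and platelet and 0.60 with B cell marker means. With the other marker lists it was 0.27 to 0.51, and the part of these cells in the difference was not tested. The next largest differences, of Ppp1r15a (0.49 ± 0.25), Atf5 (0.41 ± 0.25), Chac1 (0.37 ± 0.19), Phgdh (0.33 ± 0.16) and Atf4 (0.30 ± 0.11), did not pass. That of Atf4 was called without PLZF/RARA untreated replicate 1 at 12 h (0.36, adjusted p = 0.0478) or RA replicate 2 at 6 h (0.34, adjusted p = 0.0329). Between viral Pml wild type and Pml null leukaemia none of the 10 passed, against 1.13% of all genes, and 1 had an unadjusted p below 0.05. That gene was Ddit3, with a difference of 0.57 ± 0.17 (adjusted p = 0.103), which was called without 1 Pml null RA array (0.60, adjusted p = 0.0470) or 1 Pml wild type RA array (0.65, adjusted p = 0.0182).

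Between 6 h and 12 h the RA effect differed by the test for none of the 10 genes in any type. The shares of all genes called were 0.231% in transgenic PML/RARA, 0.0251% in PLZF/RARA, 0% in viral Pml wild type and 0.0351% in viral Pml null, and 3, 1, 1 and 2 of the 10 genes had an unadjusted p below 0.05. The median over the 10 genes was -0.32, -0.21, -0.20 and -0.34, against -0.03, -0.11, -0.02 and -0.01 for all genes. The largest single values were those of Asns in transgenic PML/RARA (-1.21 ± 0.48) and of Chac1 (-1.02 ± 0.36) and Phgdh (-0.79 ± 0.31) in viral Pml null leukaemia.

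Without RA, the leukaemias differed by up to 3.95-fold in these genes. In the viral model 6 of the 10 genes were called between Pml wild type and Pml null leukaemia, where 20.8% of all genes were called. Slc7a11, Chac1 and Trib3 were higher in Pml wild type and Phgdh, Asns and Psat1 lower. In the transgenic model 2 of the 10 were called between PML/RARA and PLZF/RARA, against 25.3% of all genes, and both Phgdh and Slc7a11 were lower in PML/RARA.

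Phgdh in the untreated viral Pml wild type arrays ran from 7.41 through 7.77 to 8.03 and in the Pml null arrays from 9.35 through 9.78 to 10.06, without overlap. The difference was -1.98 ± 0.18, or 3.95-fold (adjusted p = 1.32e-10). Asns ran from 9.83 to 11.30 in Pml wild type and from 12.09 to 12.33 in Pml null, a difference of -1.46 ± 0.19 (adjusted p = 2.11e-07). It was -1.18 and -1.20 in batch 3 at 12 h and 6 h and -2.26 in batch 4, so that its size moved with the batch while its direction did not. Psat1 overlapped between both backgrounds, 9.73 to 10.40 against 10.35 to 10.83, and its difference of -0.41 ± 0.13 (adjusted p = 0.0150) was -0.23 and not called within batch 3 (adjusted p = 0.293). It was also not called without the 12 h untreated replicate 2 of Pml null (adjusted p = 0.115) or of Pml wild type (adjusted p = 0.0947).

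In the opposite direction, Slc7a11 ran from 6.58 through 7.50 to 7.96 in untreated Pml wild type arrays. It ran from 5.48 through 5.57 to 5.98 in Pml null arrays, below the array medians of 6.56 to 6.81. The difference was 1.83 ± 0.24 or 3.56-fold (adjusted p = 2.30e-07). Chac1 ran from 8.31 to 8.73 in Pml wild type and from 7.07 to 7.38 in Pml null, a difference of 1.29 ± 0.21 (adjusted p = 1.12e-05). Trib3 had a median of 7.18 in Pml wild type and ran from 6.58 to 6.88 in Pml null, without overlap, a difference of 0.49 ± 0.17 (adjusted p = 0.0323) that 8 of the 12 fits without 1 array lost. Atf5 also did not overlap, with values of at least 7.85 against 7.46 to 7.58, but its difference of 0.39 ± 0.14 had an adjusted p of 0.0546; it was called with each array centred on its median (adjusted p = 0.0453), with genes of low mean left out (adjusted p = 0.0412) and without Pml wild type replicate 1 at 6 h (adjusted p = 0.0465). Atf4 (0.21 ± 0.12), Ddit3 (0.15 ± 0.14) and Ppp1r15a (-0.11 ± 0.19) were not called.

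In the transgenic model Phgdh ran from 7.47 through 7.91 to 8.22 in the 8 untreated PML/RARA arrays, and the 4 untreated PLZF/RARA arrays read 9.38, 9.56, 9.67 and 9.98. The difference was -1.83 ± 0.13, or 3.55-fold (adjusted p = 1.67e-13). Slc7a11 ran from 5.57 through 6.00 to 6.06 in PML/RARA, below the array medians of 6.56 to 6.81. It read 6.60, 6.62, 6.63 and 7.29 in PLZF/RARA, a difference of -0.90 ± 0.27 (adjusted p = 0.0123). Neither gene overlapped between the types, although Slc7a11 was not called without 1 PLZF/RARA array (-0.73, adjusted p = 0.0938). Asns was 0.71 ± 0.34 higher in PML/RARA and not called.

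Markers of other cells differed between the same untreated groups. In the transgenic model 6 of 7 erythroid and 8 of 10 T and NK cell markers were higher in PML/RARA (median differences 1.84 and 0.54). The untreated T and NK cell mean ran from 6.67 to 7.14 in PML/RARA and from 5.73 to 6.09 in PLZF/RARA, against array medians of 6.56 to 6.81. Over the 36 transgenic arrays it had a Pearson r of -0.92 with Phgdh. The r of Phgdh was -0.83 with the erythroid and -0.81 with the megakaryocyte and platelet mean, and -0.72 to -0.35 with the other lists. That of Slc7a11 was -0.70 with the megakaryocyte and platelet, -0.68 with the T and NK cell and -0.65 with the promyelocyte mean. With the other lists it was -0.59 to -0.23. In the viral model 6 of 10 monocyte and macrophage markers were higher in Pml wild type and none lower (median 0.73). Of the 10 promyelocyte and progenitor markers 3 were higher and 7 lower (median -0.52), while their mean log2 value was higher in Pml wild type, at 11.39 to 11.64 against 11.28 to 11.42 at 6 h and 11.47 to 11.54 against 11.18 to 11.35 at 12 h. Over the 36 viral arrays this mean had an r of -0.71 with Phgdh, -0.70 with Asns and 0.64 with Slc7a11. The monocyte and macrophage mean over the same arrays had an r of -0.90 with Asns, -0.82 with Phgdh and 0.73 with Slc7a11. For the megakaryocyte and platelet mean these were -0.71, -0.55 and 0.55. Its untreated values at 6 h were 7.59 to 8.48 in Pml wild type and 6.85 to 7.56 in Pml null, with overlap at 12 h. With the other lists the r was -0.21 to 0.40 for Asns, -0.16 to 0.59 for Phgdh and -0.42 to 0.15 for Slc7a11. These correlations join arrays of differing background and treatment, and the part of these cells in the differences was not tested.

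**Figure D4:**
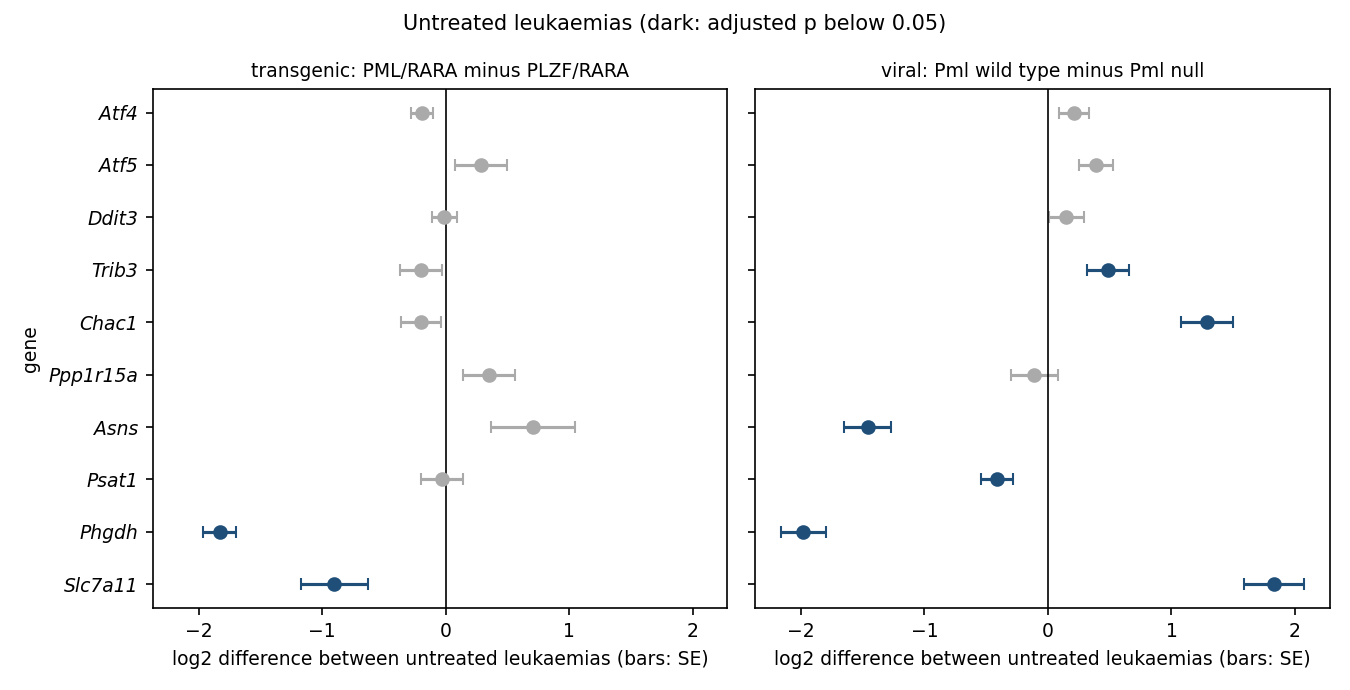
Log2 difference between untreated leukaemias, averaged over both times, with bars of 1 SE: transgenic PML/RARA minus PLZF/RARA on the left and viral Pml wild type minus Pml null on the right. Dark points have an adjusted p below 0.05; Phgdh lies near -2 in both panels (-1.83 and -1.98), while Slc7a11 is at -0.90 on the left and 1.83 on the right.

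The 4 genes with the promoter element shown above (Trib3, Chac1, Asns and Slc7a11) had 1 rise and 0 falls among their 32 RA comparisons, and the 6 genes without it had 8 rises and 4 falls among 48. In the RA comparisons 2.20% to 21.6% of all genes were called. In the untreated viral contrast all 4 were called, 3 higher and Asns lower in Pml wild type, against 2 of the 6 without the element. Of all genes 20.8% were called there. In the untreated transgenic contrast 1 of the 4 (Slc7a11) and 1 of the 6 (Phgdh) were called, where 25.3% of all genes were. No test was made of these counts, and calls among all genes with the element were not counted. The stretches were shown because of the viral calls, so these counts are not an independent observation.

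The 6 h arrays of the viral model came from batches 3 and 4, and the RA effects in Pml wild type marrow were compared between them. Besides Trib3, Asns and Chac1, given above, the value was 0.33 in batch 4 and -0.16 in batch 3 for Psat1, 0.42 and -0.01 for Atf4, 0.24 and -0.14 for Atf5, and 0.29 and -0.31 for Slc7a11. Ppp1r15a (0.26 in batch 4 and 0.45 in batch 3) and Phgdh (-0.21 and -0.36) were farther from 0 in batch 3, and Ddit3 was alike in both. In batch 4 the untreated Pml wild type arrays of Asns read 9.83 and 9.85, against 10.87 and 10.97 in batch 3, while the RA arrays had means of 10.75 and 10.97. A test of the difference between the batches, added after these values were seen, called none of the 10 genes and 0 of all genes in either background (0%). In Pml wild type marrow 4 of the 10 (Trib3 0.87 ± 0.30, Chac1 0.93 ± 0.40, Asns 0.86 ± 0.32 and Psat1 0.49 ± 0.22) and 628 of the 19938 genes had an unadjusted p below 0.05, and in Pml null marrow 0 of the 10 and 201 genes.

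Other genes of the pathway were taken from 7 lists. Of all genes, 5.81% rose and 8.54% fell in transgenic PML/RARA at 6 h and 9.88% and 11.7% at 12 h. In PLZF/RARA these shares were 1.45% and 0.747% at 6 h and 2.46% and 1.57% at 12 h. They were 5.44% and 4.44%, then 3.03% and 3.07%, in viral Pml wild type, and in viral Pml null 4.97% and 6.38%, then 4.22% and 1.83%. The counts of 15 measured of 16 other ATF4 and CHOP targets that rose and fell were 5 and 0 in transgenic PML/RARA at 6 h, 4 and 1 at 12 h, 2 and 1 and then 2 and 0 in PLZF/RARA, 4 and 0 and then 2 and 0 in viral Pml wild type, and 4 and 0 and then 2 and 0 in viral Pml null. The list's median change lay between -0.00 and 0.17 in the 8 comparisons. Jdp2, a partner of the AP-1 and ATF factors, rose in all 8, from 0.83 in PLZF/RARA at 12 h to 2.50 in viral Pml null at 6 h. Ddit4, an inhibitor of mTORC1 also induced by other stresses, rose in the 4 types at 6 h by 1.81, 1.51, 2.12 and 2.95 and in transgenic PML/RARA at 12 h by 1.29. Cebpb, a myeloid transcription factor and partner of ATF4, rose in all PML/RARA comparisons, by 0.60 to 1.15, with 0.28 and 0.21 in PLZF/RARA, not called. Sesn2, a leucine sensor that restrains mTORC1, rose in transgenic PML/RARA by 0.60 and 0.53 and had changes of -0.16 and -0.59 in PLZF/RARA that were not called; it also rose by 0.81 in viral Pml null at 6 h. The difference of its RA effect between both types was 0.95 and called, and Jdp2 differed likewise by 0.68. In the viral model the RA effect of Jdp2 was smaller in Pml wild type than in Pml null, by -0.81, which was called.

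Upstream, among 12 measured of 13 genes of the eIF2 kinases and eIF2 control, at most 4 rose and 3 fell in any RA effect, both in transgenic PML/RARA at 12 h (median -0.01). Ppp1r15b, the constitutive partner of the eIF2 phosphatase, rose in 6 of the 8 comparisons, by 0.19 to 0.55. Eif2b2, a subunit of the exchange factor of eIF2, rose by 0.22 in transgenic PML/RARA at 12 h and by 0.30 and 0.43 in viral Pml wild type. Eif2ak1, the haem-regulated kinase, rose by 0.34 in transgenic PML/RARA at 12 h and by 0.26 in viral Pml wild type at 6 h. Eif2ak3, which encodes the kinase PERK of the endoplasmic reticulum, rose by 0.20 in transgenic PML/RARA at 12 h.

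The other arms of the unfolded protein response, with all 18 listed genes measured, moved in both directions. At 12 h in transgenic PML/RARA marrow 4 rose and 6 fell (median -0.02), and in PLZF/RARA marrow 0 changed at 6 h and 3 rose at 12 h. Xbp1, the transcription factor spliced by IRE1, rose in all 6 PML/RARA comparisons by 0.52 to 0.85, and Ern1, the gene of IRE1, in 5 of them by 0.33 to 0.70. The chaperone gene Hyou1 fell by 0.32 in transgenic PML/RARA at 12 h. Sdf2l1, a chaperone cofactor, fell by 0.21 and 0.25 there at 6 h and 12 h and by 0.32 in viral Pml wild type at 6 h.

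Genes of amino acid and one-carbon metabolism, 12 measured of 13, had 1 rise and 2 falls in transgenic PML/RARA at 12 h and at most 2 falls in any RA effect. Mthfd1l, a mitochondrial folate enzyme, fell by 1.29 in transgenic PML/RARA at 12 h and by 0.92 in viral Pml wild type at 12 h. Shmt1, the cytosolic serine to glycine enzyme, fell by 0.43 and 0.63 in transgenic PML/RARA at 6 h and 12 h. Got1, the cytosolic aspartate transaminase, rose in all 6 PML/RARA comparisons by 0.45 to 0.84. Gpt2, an alanine transaminase, fell by 0.65 in viral Pml null at 6 h and differed by -1.69 between untreated PML/RARA and untreated PLZF/RARA marrow.

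Among the 9 amino acid transporters at most 2 rose and 2 fell in any RA effect. The glycine carrier Slc6a9 rose in transgenic PML/RARA by 1.06 and 1.26 and had changes of -0.66 and -1.11 in PLZF/RARA that were not called, with a called difference of 2.05 between the RA effects. It fell by 0.70 in viral Pml null at 12 h. Slc38a2, a carrier of neutral amino acids that lack of amino acids is known to induce, fell in 5 of the 8 comparisons by 0.28 to 0.58. Slc1a5, a glutamine carrier, rose by 0.56 in viral Pml null at 6 h, and Slc7a5, a leucine carrier, was called in no RA effect.

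Of the cytosolic aminoacyl-tRNA synthetases, 18 measured of 20, 1 rose and 6 fell in transgenic PML/RARA at 12 h (median -0.22, all genes -0.01), where 9.88% of all genes rose and 11.7% fell. Wars, the tryptophan enzyme that interferon is known to induce, was the riser there, by 0.51, and rose in 6 of the 8 comparisons by 0.49 to 0.97. Farsb and Farsa, the subunits of the phenylalanine enzyme, fell by 0.35 and 0.33 in transgenic PML/RARA at 12 h, and Iars, the isoleucine enzyme, fell by 0.74 in viral Pml wild type at 12 h.

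Slc7a11 is also a target of NRF2, the factor of the oxidative stress response. Of the other NRF2 targets, 10 measured of 11, 4 rose and 1 fell in transgenic PML/RARA at 6 h, 5 and 1 at 12 h, and 1 and then 2 rose in PLZF/RARA. In viral Pml wild type 2 rose and 1 fell at 6 h and 1 rose at 12 h, and in viral Pml null 3 rose and 1 fell at 6 h and 2 rose at 12 h. The list's median change lay between 0.09 and 0.25. Gsr, glutathione reductase, rose in all 8 comparisons by 0.18 to 0.44. Pgd, an enzyme that makes NADPH, rose in 5 of the 8 by 0.38 to 1.14. Gclm, a subunit of the first enzyme of glutathione synthesis, fell in 4 by 0.31 to 0.55, and Srxn1, which repairs peroxiredoxins, rose in 3 by 0.38 to 0.53.

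The 10 genes did not vary as 1 block. Over the 72 arrays, after removal of batch and model means, the 45 pairs had Pearson r between -0.55 and 0.77 with a median of 0.17; within groups the median was 0.36. Within groups the closest pairs were Asns with Psat1 (0.86) and Atf4 with Chac1 (0.82). Phgdh and Slc7a11 had an r of 0.80 over the 36 transgenic arrays and -0.78 over the 36 viral arrays. Ddit3 and Trib3 had an r of 0.74 in the viral and 0.08 in the transgenic arrays. Within groups the r was 0.34 for Phgdh with Slc7a11 and 0.59 for Ddit3 with Trib3. All arrays of a group share treatment and type, so these values describe the arrays and were not tested.

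**Figure D5:**
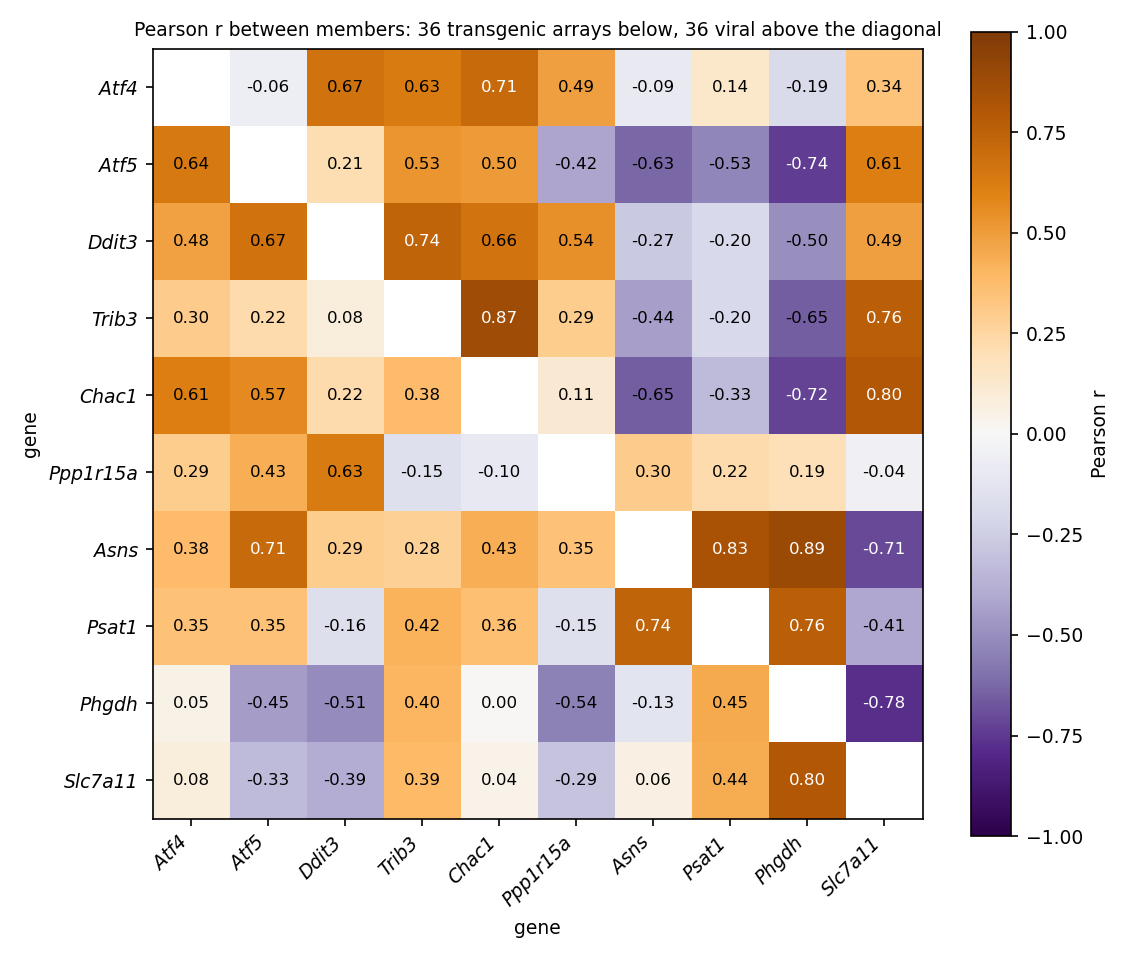
Pearson r between the 10 genes, over the 36 transgenic arrays below the diagonal and the 36 viral arrays above it. Phgdh with Slc7a11 stands at 0.80 below and -0.78 above the diagonal, and Asns with Psat1 at 0.74 and 0.83.

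The genes whose pattern over the 72 arrays was most like that of each of the 10 were also looked up. The list holds 10 of the 19938 genes, so nearest genes outside it do not speak against a shared pattern. The nearest genes inside it were Chac1 for Atf4 and Trib3, and Psat1 for Asns. Whether that is more than by chance was not tested. Ddit3 was closest to Bcl3 (r = 0.89), a nuclear cofactor of NF-kappaB, and to Nr4a1 (0.87), an immediate early nuclear receptor. Phgdh was closest to Abhd14a and Aldh1b1 (both 0.94), and Slc7a11 to Map3k20 (0.87) and Ccdc122 (0.86). Psat1 was closest to Shmt2 (0.87), the mitochondrial serine to glycine enzyme, and to Cmss1 (0.79). Asns was closest to Psat1 (0.77) and Pimreg (0.71), and Atf4 to Slc3a2 (0.77), the shared heavy chain of amino acid carriers, and Chac1 (0.65). Trib3 was closest to Sesn2 (0.79) and Chac1 (0.76), and Chac1 to Cdca4 (0.80) and Lrrc8c (0.79). These 4 values were higher over the viral than over the transgenic arrays, at 0.91 and 0.52, 0.87 and 0.38, 0.87 and 0.52, and 0.86 and 0.19. Atf5 was closest to Hax1 (0.73) and Stard5 (0.71). Ppp1r15a was closest to Klf1 (0.85), an erythroid transcription factor, and to Fech (0.81), the last enzyme of haem synthesis.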

How the data were processed

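Total RNA was hybridised to 72 arrays, and the values deposited by the authors are log2 intensities. RMA and affy are named, per the submitters' processing notes; a version, or a correction for batch, is not given in the sources used here. Array medians ran from 6.56 to 6.81, and no arrays were identical. Of 35556 probe sets, 21789 had a single gene symbol in the platform annotation, which gave 19938 genes, each represented by its brightest probe set. For each model limma 3.58.1 (R 4.3.3) was fitted to 36 arrays as 8 group means plus batch as an added term, with moderation by eBayes. There were 16 two-sided contrasts, and p-values were adjusted by Benjamini-Hochberg over all genes. The fit was tested on simulated data. No array was left out. The number of arrays limits the precision.

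The 10 genes, the pathway and marker lists, and the tests were chosen with earlier results of these data known. Besides the 10, the text names up to 4 genes per pathway list with the largest mean absolute moderated t over the 8 RA effects among genes called in at least 1 contrast, and the 2 genes closest to each of the 10 by Pearson r, without clone or predicted names. Marker genes are named only to check a label. Eif2s1, Gdf15, Pycr1, Aars, Dars and G6pdx were not analysed here. Alternatives changed the scaling, the batch term, the arrays of each batch, the filter (mean log2 value of at least 6), the variance prior, the probe set rule and the untreated controls, or left out 1 array.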

Additional observations from a re-analysis of the deposited data

Results flagged for a closer look

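Among 120 sets of arrays (a gene in a group of 4 to 10 arrays), 7 had a highest or lowest array that stood apart from the others by Dixon's criterion, and chance flags about 1 in 20. In transgenic PML/RARA marrow these were Slc7a11 in 1 untreated array at 6 h (5.65) and in 1 RA array at 12 h (4.66), Phgdh in 1 RA array at 12 h (7.80), and Ppp1r15a in 1 RA array at 6 h (9.04) and 1 untreated array at 12 h (7.44). The array with the highest Phgdh, RA replicate 5, was also the one without which the fall of Asns at 12 h passed the test. In the viral model they were Trib3 in 1 untreated Pml null array at 6 h (6.73) and Chac1 in 1 untreated Pml wild type array at 6 h (8.31).

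The RA effect on Ddit3, averaged over both times, differed between transgenic PML/RARA and PLZF/RARA leukaemia by 0.59, by a test of the difference itself.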

How the results depend on the processing

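No result that passed the test, as reported or under an alternative, changed direction. A result that passed in neither fit compared could change sign, as did Chac1 (0.28 to -0.18), Psat1 (0.08 to -0.16), Trib3 (0.43 to -0.01) and Atf4 (0.21 to -0.01) at 6 h in viral Pml wild type with batch 3 alone. Counts of called genes among the 10 changed by over 1.5 times in 4 cases: at 6 h in viral Pml null from 3 to 0 with batch 3 alone and to 1 with batch 4 alone, at 6 h in viral Pml wild type from 1 to 3 with batch 4 alone, and at 6 h in transgenic PML/RARA from 1 to 4 with untreated arrays of both times as controls. Leaving out 1 array gave counts of 0 to 1 for PLZF/RARA, viral Pml wild type and viral Pml null at 12 h, 1 to 2 for viral Pml wild type and 1 to 3 for viral Pml null at 6 h, and 4 to 5 for transgenic PML/RARA at 12 h. It gave 1 to 2 for the transgenic and 0 to 1 for the viral difference in RA effect, and 1 to 2 for the transgenic and 4 to 7 for the viral untreated difference. The other counts did not move in these fits. Of 2400 values from fits that left out 1 array, 33 lost and 8 gained a call. The cause was not tested. Groups of 2 untreated arrays limit the 12 h comparisons outside transgenic PML/RARA. Every sample title carries the same replicate number, which pairs no arrays across groups. Titles also carry running numbers, and some untreated and RA arrays have adjacent ones. The labels do not say whether such arrays share a leukaemia, so no paired analysis was made.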
